A study of Mus musculus with 2 samples.

Results

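Transcription factors of the hair follicle that carry no homeobox form the subject here: the forkhead factors Foxn1 and Foxe1, the Sp family zinc finger factor Sp6, the AP-2 factor Tfap2b, the Wnt effector Lef1, the T-box factor Tbx1, the GATA-type zinc finger factors Gata3 and Trps1, and the zinc finger repressor Ovol1. They were found by gene symbol on the array, and all 9 had at least 1 probe, 15 probes in all, among 17871 genes. Tfap2b was listed under its older symbol Tcfap2b and was matched through its gene identifier and accession. The 9 genes were chosen by their known place in the follicle and with the knockout and control intensities of these same arrays in view, so their differences are a description and none is tested.

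Total RNA of wounded back skin was measured on Illumina single-colour bead arrays, 1 array of control skin and 1 of knockout skin, and each sample pooled the RNA of 3 mice per the series' design text. The control mice carried floxed alleles of the vitamin D receptor gene (VDR fl/fl), and the knockout mice, their littermates, carried the same alleles with Cre recombinase driven by keratin 14, the keratin of basal keratinocytes and of the outer root sheath of the follicle. All were C57BL6 mice of 3 months on a low calcium diet, and the wounded skin was cut out 3 days after wounding with an 8 mm punch around wounds of 6 mm. Dermal cells, leukocytes and other cells that neither make the keratin nor descend from cells that made it keep the receptor by design. The design text gives 3 per genotype, and samples beyond these 2 arrays were not analysed here. With 1 array per genotype there is no replicate check, no test and no p-value, and overlap between the groups cannot be judged. The number of arrays limits the precision.

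The hair follicle is a skin appendage that cycles between growth, regression and rest. During growth, matrix cells at its base receive Wnt signals from the dermal papilla and divide, and their progeny form the hair shaft, the inner root sheath that moulds it and the companion layer, inside an outer root sheath that continues into the epidermis. Transcription factors set these fates layer by layer, and a pool of stem cells in the bulge refills the lower follicle in each cycle.

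Intensities are the authors' normalized values, and differences are log2 intensity, knockout minus control. A probe counted as detected at or above a floor of 172.3 in the control and 176.8 in the knockout. These levels were reached by 0.528% and 0.452% of 1326 probes for olfactory and vomeronasal receptors, which are taken as genes silent in skin. Both arrays detected 8951 genes, the control array alone a further 542 and the knockout array alone 262. The log2 difference of the genes on both arrays had a median of 0.02, with the central 95% of genes between -0.59 and 0.65. Vdr, the targeted gene, was at 2595.9 in the control and 2076 in the knockout by its brightest probe, 1673.7 and 1429.9 by another and 211.5 and 216.6 by its dim one. Their place relative to the deleted part is not known here.

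All 15 probes of the 9 follicle factors had a lower value on the knockout array, under every scaling tried for the 9 brightest probes. These scalings included no normalization, under which the genes on both arrays had a median of -0.16. Of the 15 probes, 9 were detected in both genotypes, 3 in control skin alone and 3 in neither. For those detected in neither, a direction is not secured. The 15 are also not independent, since 3 genes have several probes, and a share of lower values over all probes is not given here. Both arrays detected 6 of the factors, the control array alone detected Foxe1 and Lef1, and neither detected Foxn1. All 6 on both arrays were lower, as were 46.0% of all such genes. Sp6, Tfap2b and Tbx1 were at least 2-fold lower as measured and Foxe1 by a bound, 4 of the 8 factors detected in control skin. In the background, 1.42% of 9493 genes detected in control skin were at least 2-fold lower, as measured or as a bound. Among genes on both arrays alone, 3 of 6 factors passed 2-fold against 0.894% of genes, and 4 of 6 passed 1.5-fold against 2.51%. The 8 detected factors had a median of -1.08, with or without bounds for undetected genes, and all genes detected in control skin had a median of 0.00. These shares describe a list whose direction was already known.

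**Figure D1:**
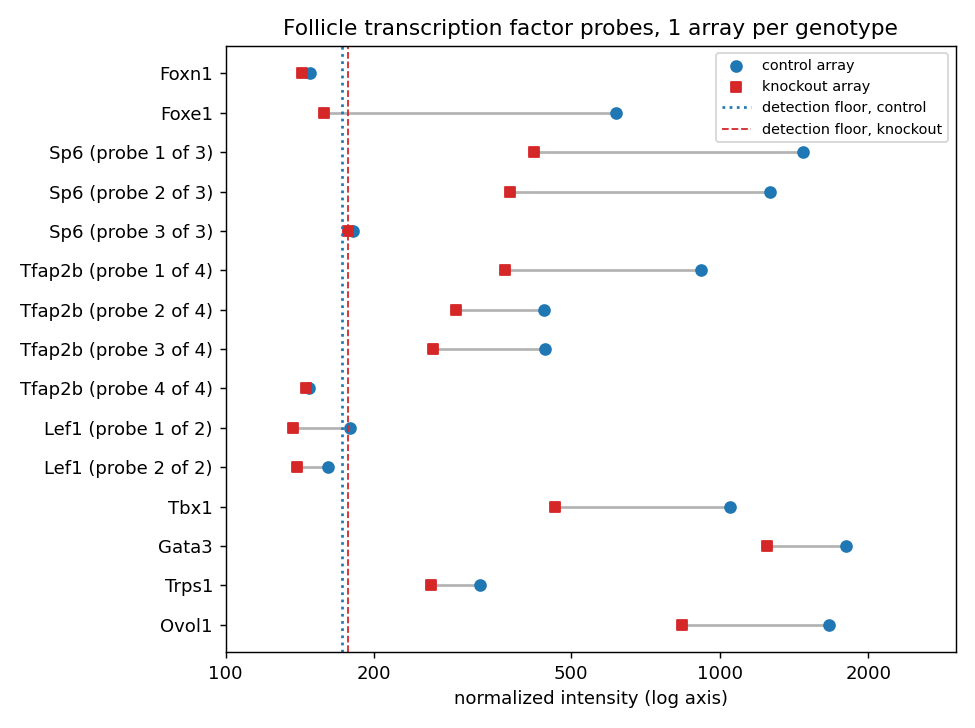
Normalized intensity of each probe of the 9 follicle factors on a log axis, with control (circles) and knockout (squares) joined by a line and the detection floors of both arrays as vertical lines. Every knockout value lies left of its control value, by most for Foxe1 (615.7 and 158.5) and Sp6 (1472.9 and 420.8), while Foxn1 and the dim probes of Tfap2b and Lef1 lie under the floors.

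Sequence windows upstream of transcription start sites were at hand for 5 of the 9 factors, from RefSeq on build GRCm38.p6. For Tbx1 and Tfap2b, 1 window each is shown because these genes were at least 2-fold lower and have a window, and Sp6, Foxe1, Ovol1 and Trps1 are named only. Each line gives 250 bases before a start site, 5′ to 3′ on the gene's strand, and capitals mark the T-box core AGGTGT.
Tbx1, chr16:18590672-18590921, minus strand: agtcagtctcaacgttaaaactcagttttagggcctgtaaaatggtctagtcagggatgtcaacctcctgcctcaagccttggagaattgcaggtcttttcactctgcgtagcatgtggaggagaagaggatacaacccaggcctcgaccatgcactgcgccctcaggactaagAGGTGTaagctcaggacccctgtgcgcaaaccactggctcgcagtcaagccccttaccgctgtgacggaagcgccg
Tfap2b, chr1:19211804-19212053, plus strand: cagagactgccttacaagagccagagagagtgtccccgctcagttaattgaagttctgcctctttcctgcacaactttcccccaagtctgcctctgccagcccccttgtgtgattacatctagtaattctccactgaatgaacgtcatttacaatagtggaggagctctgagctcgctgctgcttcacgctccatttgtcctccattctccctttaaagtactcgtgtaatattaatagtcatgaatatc

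The Tbx1 window shown ends at the outermost start of the gene, and that of Tfap2b at a start inside the gene's span. The windows of 300 bases, with 50 bases after the start, were searched on both strands for the TCF/LEF core CTTTGA, the forkhead core GTAAACA, the GATA core AGATAA, the GC box GGGCGG, the T-box core AGGTGT, the AP-2 palindrome GCCNNNGGC, and the vitamin D receptor core AGGTCA alone and as the direct repeat AGGTCANNNAGGTCA, which contains it. The Tbx1 window shown held 1 T-box core, 76 bases before the start, a motif found in 13.7% of 32851 windows. Its other window, at an internal start and not shown, held 2 GC boxes and 1 AP-2 palindrome and no T-box core. The Tfap2b window held none of the motifs. Of the 4 Lef1 windows, 3 held a GC box, those at the first 2 starts overlapping, and 1 of these 3 also held 2 T-box cores. The Lef1 window at the innermost start held 2 TCF/LEF cores, 1 GATA core and 1 T-box core. TCF/LEF and GATA cores were found in 16% and 11.2% of windows. The Gata3 window, at an internal start, held 3 AP-2 palindromes and 2 GC boxes, found in 16.6% and 35.7% of windows, and the Foxn1 window 1 of each. None of the 9 windows of the 5 genes held AGGTCA, present in 16.3% of windows. These are matches of letters and not binding sites.

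Factors of the hair matrix and shaft come first. Foxn1, the nude gene, whose loss in mice leaves the coat without lasting hair shafts and the thymus without epithelium, was at 148 in control skin and 142.8 in knockout skin by its 1 probe. Both values lie among those of silent genes, since 24.9% and 50.4% of receptor probes were as bright or brighter, so no fold is given. Hair keratins were bright on the control array at the same time, with Krt34 at 19741.2. By this probe the array gives no measure of Foxn1 in either genotype.

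Lef1, which carries Wnt signals to target genes in matrix cells and the dermal papilla, was near the floor. Its brighter probe was at 178.4 in the control and 137 in the knockout, and its other probe at 161.5 and 139.7. The knockout values were in the range of silent genes, with 79.5% and 66.3% of receptor probes as bright or brighter, and the control values stood above all but 0.302% and 1.73% of them. The bound on its difference was 1.01-fold. Background correction was also done with neqc, a method that estimates and removes background signal, here from detection p-values reassigned by brightness rank. After it the brighter probe differed by -1.29 and the other by -0.64, and these sizes are not secured, with the knockout probes under the floor.

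Sp6, also called epiprofin, which mice need for hair follicles and teeth, showed the greatest difference of the 6 factors detected on both arrays. Its brightest probe was at 1472.9 in the control and 420.8 in the knockout, 3.50-fold lower, and its second probe at 1265.2 and 376.7, 3.36-fold lower. These probes differed from each other by less than the SD of 0.14 that separated probes of 1 gene over 2131 genes. Its dim probe was at 180.9 and 176.7, close to the floors, and with it the mean over all probes was -1.20 in place of -1.81. On the scale of all genes on both arrays, 35 of 8951 were as low as Sp6 or lower.

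Ovol1, a repressor of zinc finger type that acts in differentiating epidermis and in the hair shaft, was at 1662.8 in the control and 838.5 in the knockout. The difference of 1.98-fold fell just short of 2-fold and passed it without normalization, with equal medians and with neqc, at -1.20, -1.08 and -1.11. It has 1 probe.

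Gata3, which in mice specifies the inner root sheath and is also the master factor of type 2 T cells and innate lymphoid cells, was at 1797.5 in the control and 1247.8 in the knockout, 1.44-fold lower. Among genes on both arrays 2.96% were as low or lower. Of 10 detected T cell genes, 9 were higher in knockout skin and 4 by at least 1.5-fold, with a summed intensity of 8050 in control and 9300 in knockout skin over the 10. Thy1, which fibroblasts also express, made up most of that sum, at 5986.7 and 6136.8. Cd3g and Cd3e, CD3 chains of the T cell receptor complex, went from 346.8 and 231.1 in the control to 761.6 and 428.5 in the knockout. Cd4, Cd5, Cd8a, Cd28 and Cd247 were under the floor on both arrays. Genes of innate lymphoid and mast cells were higher as well, 9 of 10 detected, and the summed intensity of the 10 was 8110 and 11700. The 4 past 1.5-fold, Mcpt4, Tpsb2, Cma1 and Fcer1a, are mast cell genes. Il17rb at 214.9 and 215.5, Klrg1 at 186.5 and 178.8 and Il1rl1 at 1177.4 and 1314.7 were within 1.5-fold, as were Rora, Areg and Cpa3. Without normalization 7 of the 10 were higher and 1 passed 1.5-fold. The part of these cells in the Gata3 value was not tested.

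Trps1, a repressor with a GATA-type zinc finger whose loss in humans gives sparse hair, was at 326.8 and 260.6, 1.25-fold lower, and 7.33% of genes on both arrays were as low or lower. With neqc it differed by -0.59, or 1.51-fold. Gata3 and Trps1 thus lay nearer to the bulk of genes than Sp6, Tfap2b, Tbx1 and Ovol1, of which the least low, Ovol1, stood among the lowest 0.916%.

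**Figure D2:**
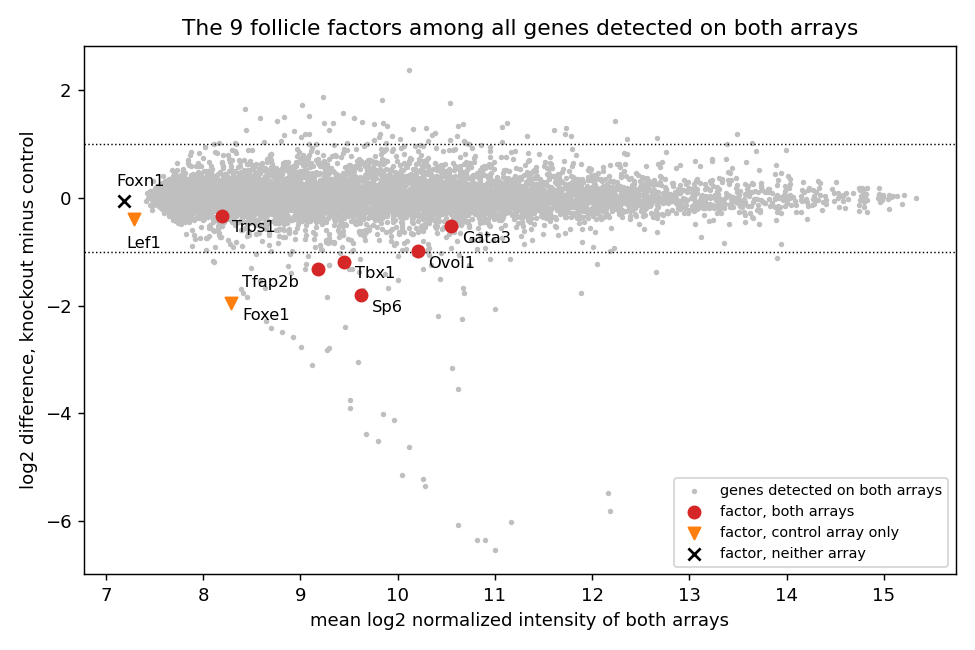
Log2 difference, knockout minus control, against the mean log2 normalized intensity, for 8951 genes detected on both arrays (grey) and the 9 follicle factors (coloured), with dotted lines at 2-fold. Sp6, Tfap2b and Tbx1 lie below the lower line with Foxe1, which is plotted as measured, and Gata3 and Trps1 lie inside it.

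Foxe1 and Tbx1 are factors of the outer follicle. Foxe1, a forkhead factor of the thyroid and of the outer root sheath of the lower follicle, was at 615.7 in control skin and at 158.5 in knockout skin, below the floor, and so at least 3.48-fold lower. In knockout skin 5.73% of receptor probes were as bright or brighter, and in control skin none. Of 542 genes detected on the control array only, 10.1% had a bound of at least 2-fold. With neqc its difference was -3.99, a size that rests on the background estimate and is not secured, since the knockout probe is under the floor.

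Tbx1, a factor of bulge stem cells that is also known from the development of the heart outflow tract and the palate, was at 1050.5 in the control and 463.3 in the knockout, 2.27-fold lower, with 65 of 8951 genes as low or lower. It has 1 probe, which carries no gene identifier in the array annotation and was matched by its symbol alone. Its difference ran from -1.42 to -1.15 over the settings tried.

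Tfap2b, AP-2 beta, known from neural crest, kidney and limb development, had 4 probes that did not agree in size. The brightest was at 917.3 and 368.2, 2.49-fold lower, and both probes with the other listed transcript, dimmer, were at 442.1 and 262.9 and at 440 and 292.1, lower by 1.68-fold and 1.51-fold. The remaining probe, designed to the same accession as the brightest, was at 147.8 and 145.5, under the floor. Over the 3 detected probes the mean difference was -0.89, and over all 4 it was -0.67, so the 2-fold size rests on the brightest probe. The differences of the 3 probes spread from -1.32 to -0.59, well beyond the probe SD of 0.14.

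Relatives with the same type of DNA-binding domain were set beside the follicle factors, without a test. Of 79 relatives listed, 76 had a probe and 27 were detected on at least 1 array. Of these 27, 1 was at least 1.5-fold lower and 1 as much higher, and their median was -0.03. Dim relatives, such as Sp1 at 186.2 and Foxa1 at 177.2 in the control, had little room to fall before the knockout floor of 176.8. Such genes could not be called 1.5-fold lower, so the counts of relatives and factors are not on equal terms. In the background 3.07% of genes detected in control skin were at least 1.5-fold lower and 3.55% of genes on both arrays as much higher. No relative passed 2-fold, as 0.894% of genes did downwards and 0.737% upwards. Without normalization the count past 1.5-fold was 2 lower, Foxq1 and Tcf7l1, and none higher, and Foxq1 then passed 2-fold. With neqc it was 2 lower and 2 higher.

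**Figure D3:**
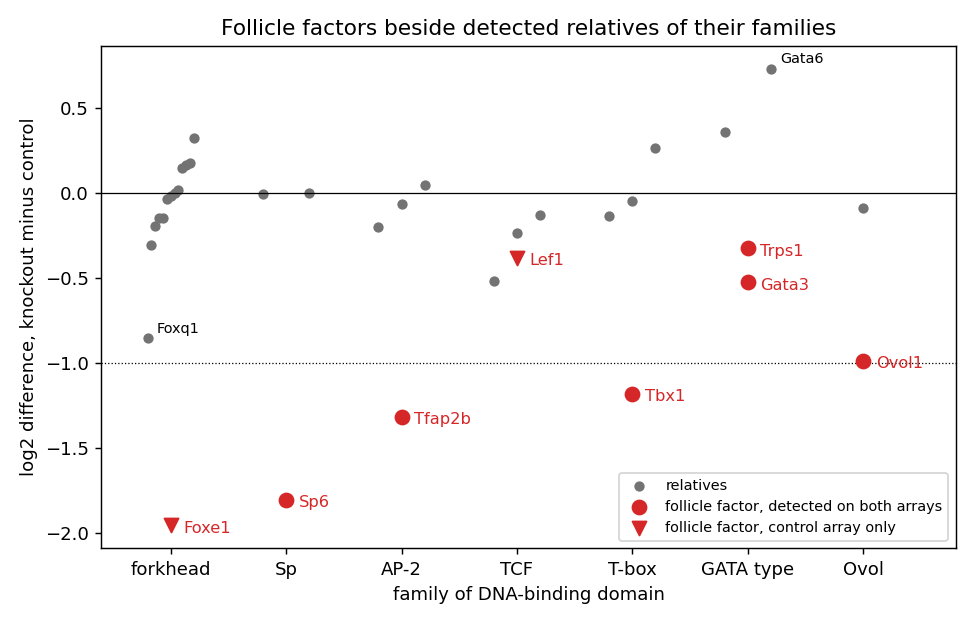
Log2 difference, knockout minus control, of each follicle factor (red, triangles where detected on the control array only, as measured) and of the detected relatives in its family (grey), with a dotted line at 2-fold lower. Sp6 and Tfap2b, each plotted by its brightest probe, lie below the detected relatives of their families. The Sp relatives are near the detection floor and have little room to fall. The other detected probes of Tfap2b differed by -0.59 and -0.75. Foxq1 and Gata6 are the relatives beyond 1.5-fold. Foxn1 is left out because it was not detected.

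Among 13 detected forkhead relatives, 8 were lower and 5 higher, with a median of -0.02. Foxq1, the satin gene of the mouse, which acts in the medulla of the hair shaft, was the one past 1.5-fold and also the brightest by mean intensity, at 1704.8 and 942, 1.81-fold lower. Foxn3, the detected relative of Foxn1, was at 912.9 and 1022.1, and Foxo1, a factor of insulin signalling, at 593.7 and 480.1.

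Sp1 and Sp5, the detected relatives of Sp6, were both near the floor, Sp1 at 186.2 and 185.6 and Sp5 at 178.9 and 178.7. Tfap2c and Tfap2a, AP-2 factors of the epidermis, were at 3790.4 and 3909.3 and at 2001.7 and 1910.3 by their brightest probes, within 1.05-fold each. The other probes of Tfap2c and Tfap2a differed by -0.15 to 0.11. Tfap2b was lower by 2.49-fold by its brightest probe, and by 1.68-fold and 1.51-fold by its other detected probes.

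Tcf7l1, a TCF factor of the bulge and outer root sheath, was at 1825.4 and 1275.8, 1.43-fold lower, and Tcf7l2 at 589.4 and 499.7. Tcf7, which T cells also express, was at 177.6 and 162.5, detected on the control array only, and no fold is secured for it. All 3 TCF relatives of Lef1 were thus lower, none past 1.5-fold, and Tcf7l1 passed it without normalization and with equal medians.

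The T-box relatives Tbx3 and Tbx6 were dim, at 201.4 and 241.6 and at 199.3 and 181.2. The GATA relatives went the other way from Gata3. Gata6, a factor of the upper follicle and the sebaceous duct, was at 488.7 in the control and 811.3 in the knockout, 1.66-fold higher, and Gata2, a factor of mast cells and blood progenitors, at 300.1 and 384.7. All 8 detected sebaceous gland genes were higher in knockout skin, 6 of them by at least 1.5-fold, with a summed intensity over the 8 of 38100 and 67700, and their part in the Gata6 value was not tested. Ovol2, the relative of Ovol1, was near the floor at 206.8 and 194.3.

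A wider list of 44 other follicle and epidermal factors without homeobox was measured too. Of 30 detected, 16 were lower and 14 higher, with a median of -0.02, and 2 were at least 1.5-fold lower and 2 as much higher. Without normalization 22 were lower and 8 higher, with a median of -0.20. Sox21, a factor of the hair cuticle, was at 2635.4 and 1386.2, 1.90-fold lower, and by another probe at 379.9 and 256.8. Its dim probe, under the floor, was at 136.5 and 137.7, and with the mean over all probes Sox21 did not pass 1.5-fold. Elf5, an epithelial ETS factor, was at 291.7 in the control and under the floor in the knockout, at least 1.65-fold lower. This rests on its brightest probe, since its others, at 138.2 and 157.1 and at 150.8 and 143, were under the floor on both arrays.

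The higher ones were Pparg, a regulator of sebocytes and adipocytes, at 657.9 and 1080.1, and Bcl11b, expressed by T cells and keratinocytes, at 1129.9 and 1729.1. The dim probes of Pparg were under the floor. Without normalization neither gene passed 1.5-fold, with equal medians only Pparg did, and with the mean over all probes only Bcl11b did. Among regulators of the epidermis, Trp63, the p63 factor of basal keratinocytes, was at 5751.8 and 5109.2, Klf5 at 3832.9 and 3814.4 and Klf4 at 1133.7 and 1087.7. Grhl1, a grainyhead factor of the epidermis, was at 4496.6 and 3303.8, 1.36-fold lower and past 1.5-fold without normalization, and Zfp750, a factor of keratinocyte differentiation, at 2068.8 and 1607.8, 1.29-fold lower. Sox9, a factor of bulge stem cells and the outer root sheath, was at 490.8 and 377.1, 1.30-fold lower, and Nfatc1, a factor of bulge quiescence, at 746.9 and 987. Also among the 14 higher ones were Rora at 833 and 1123.3, Runx1 at 242.1 and 315.2, and Hr. The brighter probe of Hr was at 7663.9 and 9594.9, 1.25-fold higher, and its dimmer probe at 586.5 and 968.

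Genes of the follicle's compartments were set beside the factors, without a test of how the lists relate. All 9 hair shaft keratins with a probe passed 2-fold downwards. Their median was -4.32, or -4.09 with bounds, with a summed intensity of 63500 in control and 1620 in knockout skin. The 7 detected inner root sheath genes were all lower, 6 of them past 2-fold, and their median was -5.22, or -5.18 with bounds. Krt71, an inner root sheath keratin, was at 34897.6 and 618.4. The median of the 8 factors, -1.08, was smaller in size than either. These sizes are not on equal terms, since a dim gene has less room to fall before the knockout floor of 176.8. In the control Lef1 was at 178.4 and the brightest factor, Gata3, at 1797.5. In bulk skin, fewer cells of a type and less RNA per cell cannot be told apart.

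Other compartments differed less. Krt75, the keratin of the companion layer, was at 441.6 in the control and under the floor in the knockout, at least 2.50-fold lower, and Corin, a protease of the dermal papilla, was at 562.8 and 229.8, 2.45-fold lower. Of 7 detected dermal papilla genes, 4 were lower and 3 higher, Crabp1 by most at 397.3 and 567.5, with a median of -0.08. Hhip, Nog, Prom1, Sox2 and Vcan were under the floor. The outer root sheath and wound keratins Krt17, Krt16 and Krt6b were within 1.5-fold, at 27206.2 and 30914.5 for Krt17, as was Krt6a, while Krt79, a keratin of the upper follicle, was at 11928.4 and 22196.1, 1.86-fold higher. Of 8 detected genes of the epidermis between follicles, 7 were higher, all within 1.5-fold, with a median of 0.13, or -0.01 without normalization, and a summed intensity of 114000 and 126000. Gata3, Ovol1 and Foxn1 are also expressed there, and the part of the epidermis in their values was not tested.

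**Figure D4:**
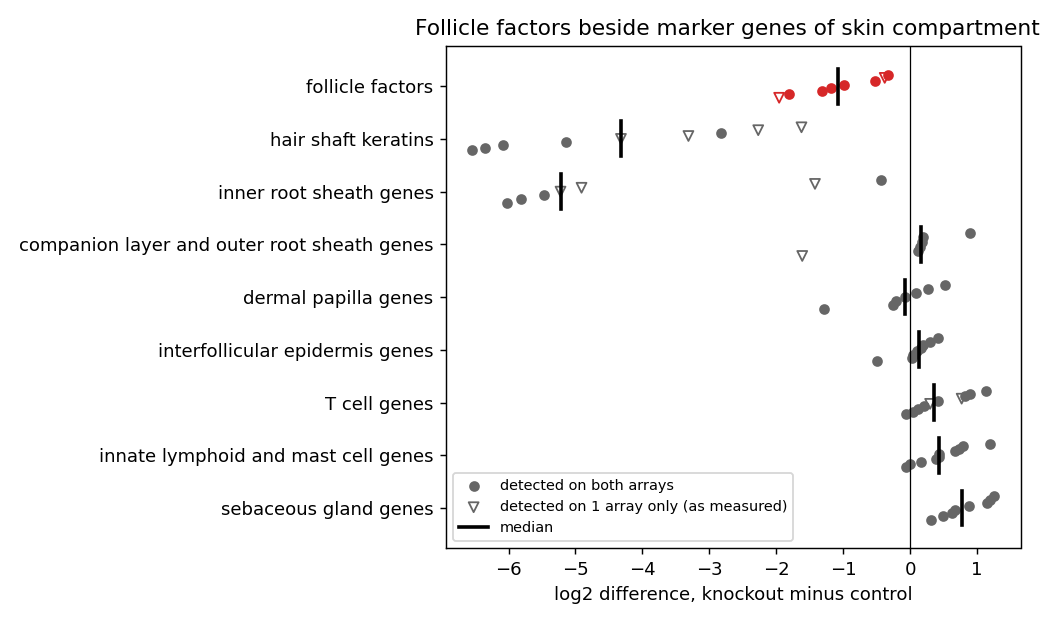
Log2 difference, knockout minus control, of each detected gene in the follicle factor list (red) and in marker lists of skin compartments (grey), with open triangles for genes detected on 1 array only, as measured, and a bar at each median. The factors, with a median of -1.08, lie between the hair shaft and inner root sheath lists, at -4.32 and -5.22, and the lists whose medians lie near or above 0. Dim genes have less room to fall than bright ones.

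The genes whose pair of log2 intensities lay nearest to a factor's were looked up among the 8951 genes, by Euclidean distance over the 2 arrays. This likeness is of bead brightness and not of RNA amount, since different probes are not comparable in level. Nearest to Sp6 were Sytl2, Slc7a8 and Robo1, at distances of 0.08, 0.31 and 0.38. Nearest to Tbx1 were Serpinb11, Dusp14 and Tent5b, at 0.06, 0.12 and 0.13, and nearest to Ovol1 was Gpx2, at 0.07. Nearest to Tfap2b were AI661453, Acsl3 and Pik3r3, at 0.16, 0.16 and 0.19. Gata3 had Rai14, Upf2 and the TCF factor Tcf7l1 nearest, at 0.02, 0.03 and 0.04, and Trps1 had Elmod1, Vps72 and Zfp296, all within 0.04.

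**Figure D5:**
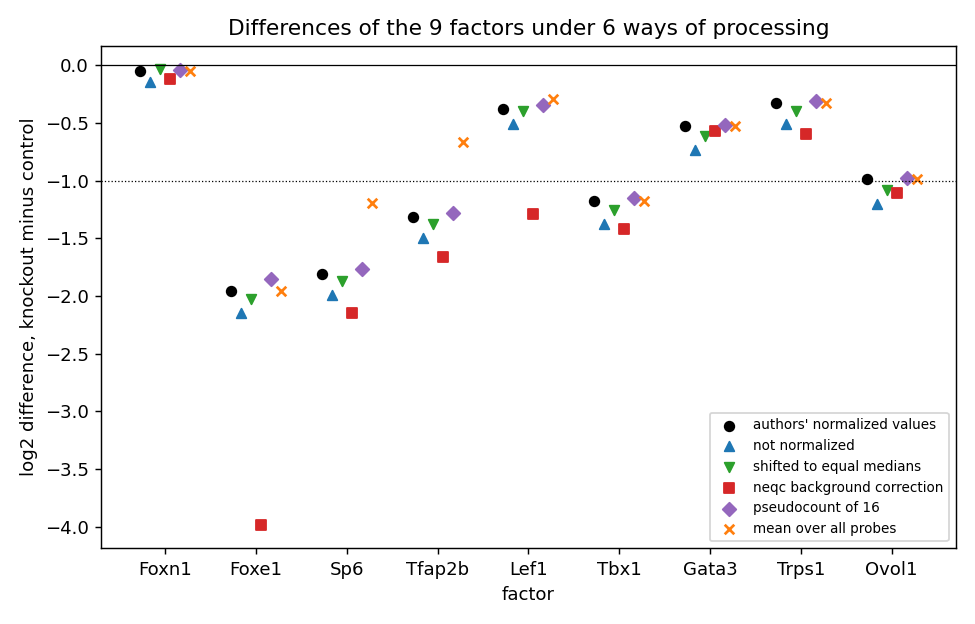
Log2 difference, knockout minus control, of the 9 follicle factors under 6 ways of processing, with a dotted line at 2-fold lower. All points lie below 0, those of Foxn1 from intensities under the floor on both arrays. Foxe1 and Lef1 move by most with neqc, to -3.99 and -1.29, and Sp6 and Tfap2b with the mean over all probes, to -1.20 and -0.67.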

How the data were processed

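RNA of wounded skin was hybridised to 2 bead arrays, 1 per genotype, of 25697 probes each, and groups follow the sample titles. Per the submitters' processing notes GenomeStudio 2011.1 was used. The background setting, normalization method and build were not given in the sources used here. The deposited raw table holds the linear intensity of each probe with background left in, with medians of 180 for control and 165.8 for knockout skin. In the normalized table the authors had brought the intensity of both arrays to one scale, with the same quantiles in both columns and a median of 169.9, and the series matrix equals it. The deposited detection p-values do not follow the rows of the signals, with rank correlations of 0.009 and 0.008, so they were used as a set: on each array as many of the brightest probes counted as detected as there were p-values under 0.01, 12588 and 12161.

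Differences are log2 of the normalized intensity, with no pseudocount and no test. Background remains in these values, so folds of dim genes are understated. A gene is represented by its brightest probe by mean, and is under the floor only if all its probes are. Where 1 array alone detects a gene, its fold is a bound against the floor of the other. Symbols were updated through a RefSeq table of GRCm38.p6, which left 321 probes with the name in the file. The factors and the 21 gene lists beside them were chosen with earlier results of these data known. All factors are named, and relatives and other factors past 1.5-fold, with the brightest relative of each family. Others shown, such as Foxn3, Foxo1, Trp63, Klf4, Klf5, Grhl1, Zfp750, Sox9, Nfatc1, Rora, Runx1 and Hr, and single genes of the marker lists, were chosen after their values were seen. Scaling, background, pseudocount, probe choice and detection were varied. For neqc the detection p-values of each array were reassigned by rank, the smallest to the brightest probe. The calling of bounds and folds was tested on simulated data. Python 3.11.15, pandas 2.3.3, R 4.3.3 and limma 3.58.1 were used.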

Additional observations from a re-analysis of the deposited data

How the results depend on the processing

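No setting turned the direction of any of the 8 detected factors. Moves of over 0.58 on the log2 scale came from neqc, which took Foxe1 to -3.99 and Lef1 to -1.29, both from knockout values under the floor, and from the mean over all probes, which took Sp6 to -1.20 and Tfap2b to -0.67. Averaging only probes above the floor on both arrays, chosen after seeing the data, gave -1.78 for Sp6 and -0.89 for Tfap2b. From 3 to 5 factors were at least 2-fold lower over the settings, and the median of the detected factors ran from -1.35 to -0.83. Among all genes the share at least 2-fold lower ran from 0.783% to 1.60%. In the main setting the factor count takes in Foxe1 by a bound, and these shares include no bounds. The count of all genes on both arrays at least 2-fold lower, 80 of 8951, became 129 without normalization and 143 with neqc, each of 8954. With no detection filter it was 140 of all 17871 genes, or 0.783%, against 0.894% in the main setting. The lower genes made up 54.8% of those past 2-fold, 80.1% without normalization, 68.1% with equal medians and 46.9% with neqc. Without normalization the median of all genes moved from 0.02 to -0.16, and the factors' values there are to be read against it. Dim signals limit Foxn1, Lef1 and Foxe1 in the knockout. No paired analysis was possible because there is 1 array per genotype.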

Other observations

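Other cell types in the same RNA were followed by their markers. Mast cell genes were higher in knockout skin, with Fcer1a, a chain of the IgE receptor, at 360.7 and 822.4 and the protease Mcpt4 at 1806.5 and 2989.8, while Ms4a2 was under the floor on both arrays. The 5 detected melanocyte genes were all lower, 4 of them past 2-fold, and their median was -3.04. Dct, which acts in melanin synthesis, was at 5376.6 and 460.5. Mitf, the master factor of melanocytes, was under the floor on both arrays at 142.3 and 147.2, as Foxn1 was.

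Dermal fibroblast, endothelial, skeletal muscle and nerve genes had medians of 0.13, 0.46, 0.26 and 0.26, and of these lists only Myh1, a muscle myosin, at 605.8 and 971.7, passed 1.5-fold in the normalized values. Myh1 did not pass it without normalization, with equal medians or with the mean over its probes, and with neqc 1 endothelial and 2 nerve genes also passed. The fibroblast median was -0.07 without normalization, with 5 of 7 genes lower.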
